A study of Mus musculus with 15 samples.

Results

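The Serpina3 cluster is a run of related genes on mouse chromosome 12 that code for protease inhibitors of the serpin family. The 9 genes described here (Serpina3b, c, f, g, i, j, k, m and n) were found by matching the Ensembl identifiers of the count table to these symbols, 9 of 43352 rows. They were chosen by earlier results of the same libraries, namely their counts in Prdm16 cKO against control fat, so their values in the genotype comparisons are given as a description and without a p-value. The 5 other Serpina3 rows of the table (Serpina3a, Serpina3h and the pseudogenes Serpina3d-ps, Serpina3e-ps and Serpina3l-ps) stayed at or below a mean of 0.128 CPM (counts scaled to a library of 1 M) in every group.

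Messenger RNA was sequenced in bulk from the fat around the abdominal aorta (abdominal perivascular adipose tissue, aPVAT) and around the thoracic aorta (tPVAT) of mice aged 11 weeks. The cKO mice carried the floxed allele Prdm16flox together with AdipoQCre+, a Cre recombinase under the control of the adipocyte gene Adipoq, and the controls (Ctr) carried Prdm16flox without it. There were 3 libraries of aPVAT cKO (numbers 1, 3 and 4), 4 of aPVAT Ctr, 4 of tPVAT cKO and 4 of tPVAT Ctr, with total counts of 37.8 M to 68.7 M. The floxed allele is thus shared by both genotypes, the Cre is directed to adipocytes and not to the other cells of the tissue, and the labels give neither the sex of the mice nor whether the samples of a group came from separate animals, so that p-values measure only the spread between these samples.

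Serpins are suicide inhibitors. A flexible loop near the end of the protein, the reactive centre loop, is offered to a protease as bait, and the cleaved loop folds into the body of the serpin and traps the enzyme on it. The human genome has a single SERPINA3 gene, which codes for the acute-phase plasma protein alpha-1-antichymotrypsin, whereas the mouse carries a whole set of copies that differ most in this loop. In mice, Serpina3n is known as an inhibitor of granzyme B and leukocyte elastase, Serpina3g (Spi2A) as an inhibitor of lysosomal cathepsins in leukocytes, Serpina3k (contrapsin) as an abundant liver product, and Serpina3c as a protein that binds tissue kallikrein. Prdm16 is a transcriptional regulator of the brown and beige fat cell programme.

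On GRCm38 (mm10) the 9 genes span chr12:104127996-104414329, which is 286 kb. Serpina3b lies at chr12:104127996-104139545, Serpina3c at chr12:104146382-104153870, Serpina3f at chr12:104214544-104221129 and Serpina3g at chr12:104236245-104241939. They are followed by Serpina3i at chr12:104263122-104269372, Serpina3j at chr12:104314553-104320725, Serpina3k at chr12:104338486-104346144, Serpina3m at chr12:104338486-104394257 and Serpina3n at chr12:104406729-104414329. Serpina3c is on the minus strand and the other 8 are on the plus strand. The annotated span of Serpina3m covers Serpina3k, and both share 60 exon bases, 2.92% of the exon length of Serpina3k and 3.49% of that of Serpina3m.

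The coding stretch of the reactive centre is shown because it is where these paralogs differ most, and hence where a read can tell them apart. Each line is an 81-base stretch of the annotated coding sequence, read 5′ to 3′ on the strand of the gene from the GRCm38 genome. Lower case marks the first 12 codons, which code for the conserved hinge of the loop, and capitals mark the next 15 codons, which hold the variable part that serpins present to proteases.
Serpina3b: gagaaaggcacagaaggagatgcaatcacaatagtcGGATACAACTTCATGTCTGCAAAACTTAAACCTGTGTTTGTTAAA
Serpina3c: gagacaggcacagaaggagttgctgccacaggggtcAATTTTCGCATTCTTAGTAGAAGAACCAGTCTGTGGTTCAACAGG
Serpina3f: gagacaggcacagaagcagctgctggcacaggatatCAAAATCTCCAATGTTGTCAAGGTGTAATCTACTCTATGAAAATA
Serpina3g: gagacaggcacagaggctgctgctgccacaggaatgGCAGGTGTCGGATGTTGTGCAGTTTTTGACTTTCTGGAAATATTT
Serpina3i: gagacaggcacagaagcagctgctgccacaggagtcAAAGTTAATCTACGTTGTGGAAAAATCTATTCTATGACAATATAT
Serpina3j: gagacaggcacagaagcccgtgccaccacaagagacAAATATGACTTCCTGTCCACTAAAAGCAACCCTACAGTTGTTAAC
Serpina3k: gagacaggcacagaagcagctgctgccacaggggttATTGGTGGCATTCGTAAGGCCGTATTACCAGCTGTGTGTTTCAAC
Serpina3m: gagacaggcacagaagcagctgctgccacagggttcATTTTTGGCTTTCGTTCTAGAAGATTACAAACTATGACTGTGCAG
Serpina3n: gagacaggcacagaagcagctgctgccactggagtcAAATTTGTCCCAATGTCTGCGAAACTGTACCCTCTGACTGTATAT

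The stretches lie at chr12:104138659-104138739 (Serpina3b), chr12:104147313-104147393 (Serpina3c, minus strand), chr12:104220239-104220319 (Serpina3f), chr12:104241066-104241146 (Serpina3g) and chr12:104268474-104268554 (Serpina3i). The others are at chr12:104319680-104319760 (Serpina3j), chr12:104345263-104345343 (Serpina3k), chr12:104393763-104393843 (Serpina3m) and chr12:104413442-104413522 (Serpina3n). Compared position by position over the 36 pairs of genes, the hinge codons had a median identity of 84.7% and the capitals one of 37.8%. Serpina3k and Serpina3m, the closest pair with 91.99% identity over the whole coding sequence, differed at 2 of the 36 hinge bases and at 20 of the 45 bases in capitals.

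Paralogs this close can exchange reads. Of all windows of 50 bases in the annotated transcripts, 19.07% of those of Serpina3m, 16.02% of Serpina3g, 15.43% of Serpina3i, 14.04% of Serpina3k and 10.73% of Serpina3f also occurred in a transcript of another gene. The shares were 6.9% for Serpina3n, 4.25% for Serpina3c, 3.13% for Serpina3j and 2.92% for Serpina3b. With windows of 100 bases no window was shared for Serpina3b, Serpina3c and Serpina3j, and at most 6.09% (Serpina3m). The values of Serpina3f, g, i, k and m are therefore less certain than those of Serpina3b, c, j and n, and how the authors' counting treated reads with several matches is not given in the sources used here.

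**Figure D1:**
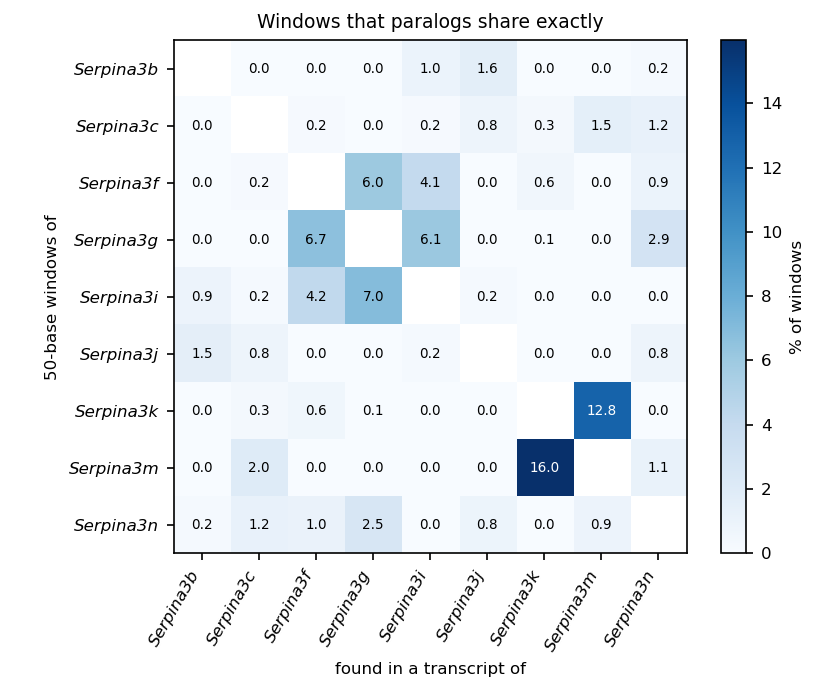
Share of the 50-base windows in the transcripts of the gene of a row (in %, colour and number) that also occur in a transcript of the gene of a column. The darkest cells join Serpina3m and Serpina3k, and a weaker block joins Serpina3f, Serpina3g and Serpina3i.

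The promoters of 3 genes are printed because these genes (Serpina3b, Serpina3c and Serpina3n) are the most abundant members and because the values of Serpina3c and Serpina3n follow each other closely. The sequences are those of RefSeq on GRCm38.p6, from 250 bases before to 50 bases after the start of the gene, on its own strand: chr12:104127746-104128045 (plus), chr12:104153823-104154122 (minus) and chr12:104406458-104406757 (plus). Capitals mark the stretch CATTTCCTAAGA.
Serpina3b: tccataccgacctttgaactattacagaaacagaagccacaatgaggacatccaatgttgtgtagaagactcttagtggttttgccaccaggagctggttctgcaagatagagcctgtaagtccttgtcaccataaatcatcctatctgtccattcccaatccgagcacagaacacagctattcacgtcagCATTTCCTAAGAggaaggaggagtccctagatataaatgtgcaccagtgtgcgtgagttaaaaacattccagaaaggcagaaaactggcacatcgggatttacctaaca
Serpina3c: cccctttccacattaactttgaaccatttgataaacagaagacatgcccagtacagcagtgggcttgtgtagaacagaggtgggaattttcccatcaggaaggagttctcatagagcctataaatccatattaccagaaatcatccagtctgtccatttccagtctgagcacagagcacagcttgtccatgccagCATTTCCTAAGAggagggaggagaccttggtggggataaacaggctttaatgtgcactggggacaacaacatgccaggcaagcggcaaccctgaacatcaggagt
Serpina3n: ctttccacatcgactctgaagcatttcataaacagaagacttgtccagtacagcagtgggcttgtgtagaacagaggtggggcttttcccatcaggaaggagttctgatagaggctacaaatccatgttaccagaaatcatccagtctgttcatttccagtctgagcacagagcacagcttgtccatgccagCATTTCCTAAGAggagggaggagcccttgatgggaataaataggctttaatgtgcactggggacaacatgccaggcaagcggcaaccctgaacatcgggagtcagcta

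The table of promoters held 7 of the 9 genes, all but Serpina3k and Serpina3m. The promoters of Serpina3c and Serpina3n were 93.54% identical, against 71.93% for Serpina3b and Serpina3c. CATTTCCTAAGA, searched on both strands, was present in 6 of the 7 (not in Serpina3j) and in 10 of all 27025 promoters (0.037%); it had been picked as a stretch that the members share. It starts 59, 55 and 58 bases before the gene start in Serpina3b, Serpina3c and Serpina3n (positions -59, -55 and -58). The windows follow annotated gene starts, which were not checked, and in Serpina3g the stretch lies after that start, at position 32. The window of Serpina3j was 51.6% to 57.41% identical to the others. Whether it covers the matching part of the gene was not tested, so the missing stretch may not describe the Serpina3j promoter. The palindrome TTCNNNGAA, the core to which STAT factors bind, occurred in 3 of the 7 (Serpina3f, g and i) and in 8.466% of all promoters. Such matches describe the letters and not a site in use.

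The genotype was checked first, and markers of adipocytes were read beside it. The depot labels were not checked by these values. Prdm16 averaged 22.4 ± 1.07 CPM in tPVAT cKO and 47.3 ± 6.04 CPM in tPVAT Ctr (SD, n = 4 each), a log2 fold change of -1.08 (SE 0.097, edgeR adjusted p = 2.22e-06). In aPVAT it averaged 16.1 ± 1.99 CPM in cKO (SD, n = 3) and 23.7 ± 2.22 CPM in Ctr (SD, n = 4), a log2 fold change of -0.57 (SE 0.105, edgeR adjusted p = 0.00992). Transcripts of 8 adipocyte markers summed to between 10900 and 15500 CPM in all libraries. In tPVAT 4 of the 8 were higher in cKO (Plin4, Adipoq, Plin1 and Fabp4, log2 fold changes of 0.34 to 0.52), where 5.44% of all tested genes were called higher. In aPVAT none of the 8 was called with edgeR or DESeq2, and 0 had an unadjusted p under 0.05. Of other cell types, 3 of 6 endothelial markers (Tie1, Kdr and Esam) were called lower in tPVAT cKO. So were 2 of 5 heart muscle markers (Nppa and Ryr2) and 1 of 5 smooth muscle markers (Des), where 6.61% of all tested genes were called lower. No marker of these lists was called higher there. With libraries scaled by their totals alone, Kdr and Esam were not called lower. What part these markers have in the Serpina3 values was not tested. In bulk tissue, fewer cells of a type and less RNA per cell cannot be told apart.

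Serpina3b, Serpina3c and Serpina3n were the family's main transcripts in aPVAT, and Serpina3c and Serpina3n were its main transcripts in tPVAT. The 9 genes together held 514, 487 and 645 CPM in aPVAT cKO 1, 3 and 4, and 505, 331, 395 and 438 CPM in aPVAT Ctr 1 to 4. In tPVAT they held 100, 113, 79.0 and 82.0 CPM in cKO 1 to 4, and 43.4, 42.8, 38.0 and 40.0 CPM in Ctr 1 to 4. The groups of tPVAT did not overlap, with a mean of 93.5 ± 16.0 CPM in cKO and 41.1 ± 2.53 CPM in Ctr (SD, n = 4 each), while those of aPVAT did. A read counted for one of the 9 genes in place of another leaves this sum as it is, but windows were also shared with genes outside it (9.21% of those of Serpina3i and 8.67% of Serpina3g with Serpina3h, 4.27% of Serpina3f with Serpina3e-ps).

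Per kb of exon, Serpina3b was the most abundant member in aPVAT cKO, with a level of 84.0 ± 21.0 CPM per kb (SD, n = 3), and ranked 425 among 19485 genes. Serpina3c (70.2 ± 11.1) and Serpina3n (68.6 ± 7.86 CPM per kb) lay within its spread. Serpina3j followed with 19.3 ± 3.54 and Serpina3k with 12.9 ± 8.04 CPM per kb, while Serpina3m, g, f and i were at 3.34, 1.32, 0.206 and 0.187 CPM per kb. In tPVAT Ctr the order was another one. There Serpina3n (9.35 ± 0.76) and Serpina3c (8.52 ± 0.345 CPM per kb, SD, n = 4 each) led, and each of the other 7 was at 0.507 CPM per kb or lower.

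**Figure D2:**
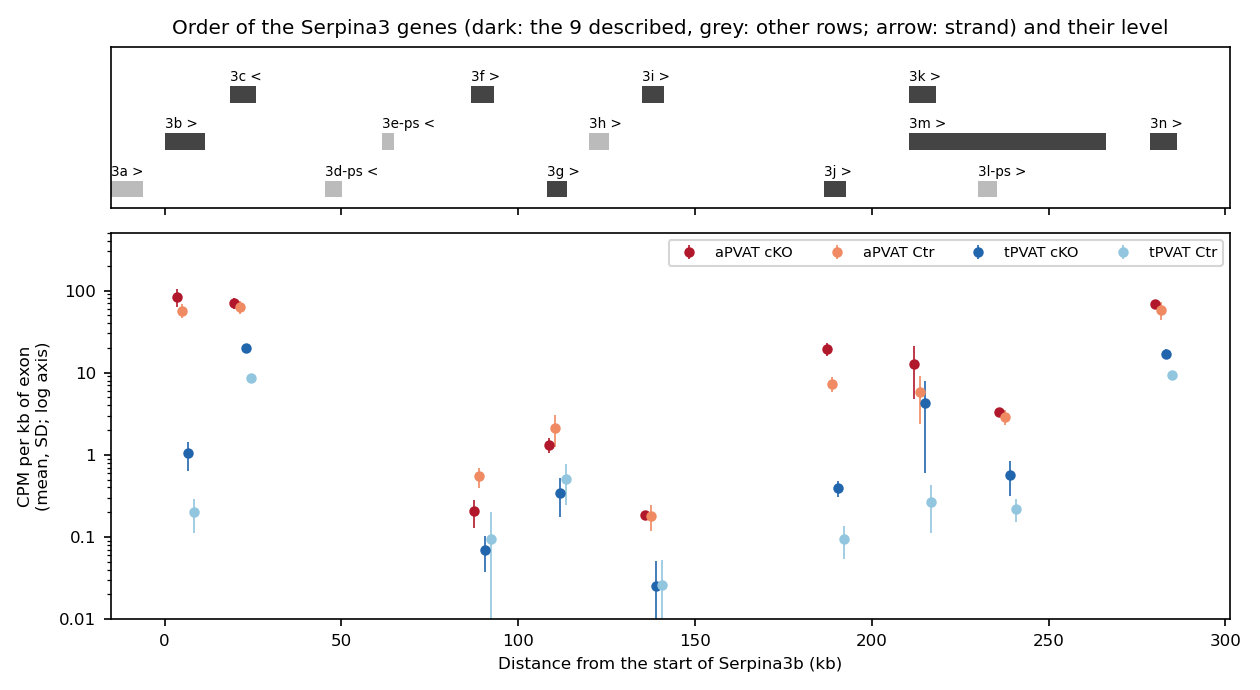
Upper panel: the Serpina3 genes by distance from the start of Serpina3b (kb), with the 9 described genes dark, other rows grey and the strand as an arrow. Lower panel: the mean level of each described gene (CPM per kb of exon, log axis; bars, SD, cut off at the lower edge) in aPVAT cKO (n = 3), aPVAT Ctr, tPVAT cKO and tPVAT Ctr (n = 4 each). In aPVAT the highest levels are at both ends of the cluster. In tPVAT Serpina3b, at one end, is low (1.04 in cKO and 0.201 CPM per kb in Ctr). The lowest levels, those of Serpina3f and Serpina3i, lie in the middle.

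The depots were compared within each genotype, a comparison that the choice of the genes had not used, though it shares libraries with the genotype comparisons. All 9 genes were higher in aPVAT than in tPVAT, in cKO and in Ctr mice, when tested with edgeR's quasi-likelihood test and Benjamini-Hochberg adjustment over all 19645 genes tested. In cKO mice 52.6% of all tested genes were called between the depots, 27.2% higher and 25.4% lower in aPVAT, and 27.4% had depots that did not overlap in the higher direction. In Ctr mice 56.6% were called, 29.3% higher and 27.3% lower, and 25.4% did not overlap in the higher direction. The depots differed in their TMM factors (1.24 to 1.35 in aPVAT, 0.751 to 0.879 in tPVAT). Scaled by library totals alone, an alternative chosen after seeing the data, the median of all genes was 0.69 in cKO and 0.78 in Ctr on the log2 scale, and 90.6% of the calls in cKO and 91.2% of those in Ctr were higher in aPVAT, against 51.7% in each with TMM. All 9 members were called higher in aPVAT under that scaling too. In Ctr mice the largest gaps were those of Serpina3b, Serpina3j and Serpina3k, genes close to absent in tPVAT Ctr. Serpina3i reached the level asked for by the filter on low counts in no tPVAT library, and Serpina3f in 1 of 4 in each tPVAT group, so both entered the test through aPVAT. Their depot values and the count of 9 of 9 are therefore a description.

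Serpina3b gave the widest gap between depots. It had 146, 151 and 224 CPM in aPVAT cKO 1, 3 and 4, and 1.38, 3.34, 2.01 and 1.92 CPM in tPVAT cKO 1 to 4. In the controls it had 144, 91.5, 107 and 130 CPM in aPVAT 1 to 4, and 0.277, 0.45, 0.276 and 0.665 CPM in tPVAT 1 to 4. Every aPVAT library lay far above every tPVAT library. The log2 fold change of aPVAT over tPVAT was 6.32 (SE 0.274, edgeR adjusted p = 2.30e-10) in cKO and 8.15 (edgeR adjusted p = 6.86e-11) in Ctr, where the ratio of the means was 283.

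Serpina3j, its closest relative in the capitals of the reactive centre (62.2% of positions the same), gave nearly as wide a gap. It had 33.6, 42.8 and 48.7 CPM in aPVAT cKO 1, 3 and 4, and 0.876, 1.1, 0.796 and 0.652 CPM in tPVAT cKO 1 to 4. In Ctr it had 11.6, 19.1, 16.8 and 15.8 CPM in aPVAT, and 0.336, 0.187, 0.161 and 0.138 CPM in tPVAT. The depots did not overlap. Between aPVAT and tPVAT the log2 fold change was 5.59 in cKO (edgeR adjusted p = 9.67e-11) and 6.23 in Ctr (edgeR adjusted p = 8.53e-11). Serpina3j reached the cut-off of the filter on low counts in all 4 tPVAT cKO libraries, but in 1 of 4 tPVAT Ctr libraries. The size of the gap in Ctr therefore rests on few tPVAT reads (17, 10, 7 and 6 in Ctr 1 to 4).

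Serpina3c and Serpina3n, the pair with nearly the same promoter, were expressed in every library. Serpina3c had 145, 138 and 183 CPM in aPVAT cKO 1, 3 and 4, 173, 110, 139 and 143 CPM in aPVAT Ctr, 49.2, 46.1, 40.1 and 43.1 CPM in tPVAT cKO, and 20.0, 18.6, 18.2 and 18.7 CPM in tPVAT Ctr. Serpina3n had 133, 131 and 160 CPM in aPVAT cKO 1, 3 and 4, 159, 88.3, 117 and 111 CPM in aPVAT Ctr, 36.7, 41.1, 31.0 and 32.0 CPM in tPVAT cKO, and 21.1, 20.0, 17.7 and 18.3 CPM in tPVAT Ctr. For both genes the depots did not overlap, nor did the genotypes in tPVAT. The ratio of Serpina3c to Serpina3n stayed between 0.93 and 1.35 in all 15 libraries. In tPVAT it did not overlap between the genotypes, with 0.93 to 1.03 in Ctr and 1.12 to 1.35 in cKO. What part the promoters have in these values was not tested. The log2 fold change of aPVAT over tPVAT in cKO was 1.80 for Serpina3c (edgeR adjusted p = 1.25e-08) and 2.01 for Serpina3n (edgeR adjusted p = 3.39e-08). In Ctr it was 2.91 for Serpina3c (edgeR adjusted p = 1.06e-10) and 2.62 for Serpina3n (edgeR adjusted p = 9.45e-10).

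Serpina3k varied widely between libraries of a group. It had 45.3, 14.5 and 19.6 CPM in aPVAT cKO 1, 3 and 4, 7.25, 10.9, 7.15 and 22.0 CPM in aPVAT Ctr 1 to 4, 10.2, 18.7, 2.88 and 3.05 CPM in tPVAT cKO 1 to 4, and 0.415, 0.843, 0.161 and 0.802 CPM in tPVAT Ctr 1 to 4. tPVAT cKO 1 and 2 lay above tPVAT cKO 3 and 4, and tPVAT cKO 2 lay inside the range of aPVAT cKO, so that between the depots the cKO libraries overlapped and the Ctr libraries did not. The log2 fold change of aPVAT over tPVAT was 4.39 in Ctr (edgeR adjusted p = 8.95e-05). In cKO it was 1.6 (SE 0.583, edgeR adjusted p = 0.0306), and the call rested on single libraries: the edgeR adjusted p was 0.219 without aPVAT cKO 1, with a log2 fold change of 0.96, 0.0758 without tPVAT cKO 3 and 0.0791 without tPVAT cKO 4. DESeq2 gave an adjusted p of 0.0569, and edgeR on the cKO libraries alone gave 0.0511.

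Serpina3m, which shares 15.96% of its 50-base windows with Serpina3k, was lower and steadier. It had 6.51, 5.22 and 5.48 CPM in aPVAT cKO 1, 3 and 4, 5.44, 4.58, 3.78 and 6.24 CPM in aPVAT Ctr, 1.05, 1.59, 0.657 and 0.652 CPM in tPVAT cKO, and 0.495, 0.3, 0.253 and 0.459 CPM in tPVAT Ctr. Again tPVAT cKO 1 and 2 were the higher libraries of their group, and the depots did not overlap. Between aPVAT and tPVAT the log2 fold change was 2.52 in cKO (edgeR adjusted p = 1.13e-06) and 3.73 in Ctr (edgeR adjusted p = 2.54e-08). The ratio of Serpina3k to Serpina3m ranged from 0.636 to 11.8 over all libraries.

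Serpina3f, Serpina3g and Serpina3i, which lie close together and share windows, were the scarcest members in aPVAT. Serpina3g had 3.41, 2.59 and 2.35 CPM in aPVAT cKO 1, 3 and 4, 3.11, 4.52, 3.24 and 7.17 CPM in aPVAT Ctr, 0.518, 0.784, 1.21 and 0.403 CPM in tPVAT cKO, and 0.613, 1.82, 1.15 and 0.688 CPM in tPVAT Ctr. Serpina3f had 0.624, 0.512 and 0.278 CPM in aPVAT cKO 1, 3 and 4, 1.45, 1.33, 0.743 and 1.48 CPM in aPVAT Ctr, 0.179, 0.167, 0.239 and 0.0575 CPM in tPVAT cKO, and 0.0989, 0.581, 0.0689 and 0.115 CPM in tPVAT Ctr. Serpina3i was between 0.255 and 0.576 CPM in the 7 aPVAT libraries and between 0 and 0.138 CPM in the 8 tPVAT libraries.

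All 3 were higher in aPVAT without overlap of the depots. The log2 fold change of Serpina3g was 1.94 in cKO (edgeR adjusted p = 0.000775) and 2.07 in Ctr (edgeR adjusted p = 0.000178), with 0.157 CPM, the cut-off of the filter, reached in all 15 libraries. Serpina3i and Serpina3f, which entered through aPVAT, are given without a p-value. Serpina3i had a log2 fold change of 2.86 in cKO (3.69 without tPVAT cKO 4) and of 2.77 in Ctr (3.52 without tPVAT Ctr 4). Serpina3f had 1.58 in cKO (SE 0.566) and 2.47 in Ctr (3.70 without tPVAT Ctr 2). In cKO Serpina3f was no longer called without aPVAT cKO 1, aPVAT cKO 3, tPVAT cKO 2 or tPVAT cKO 4.

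**Figure D3:**
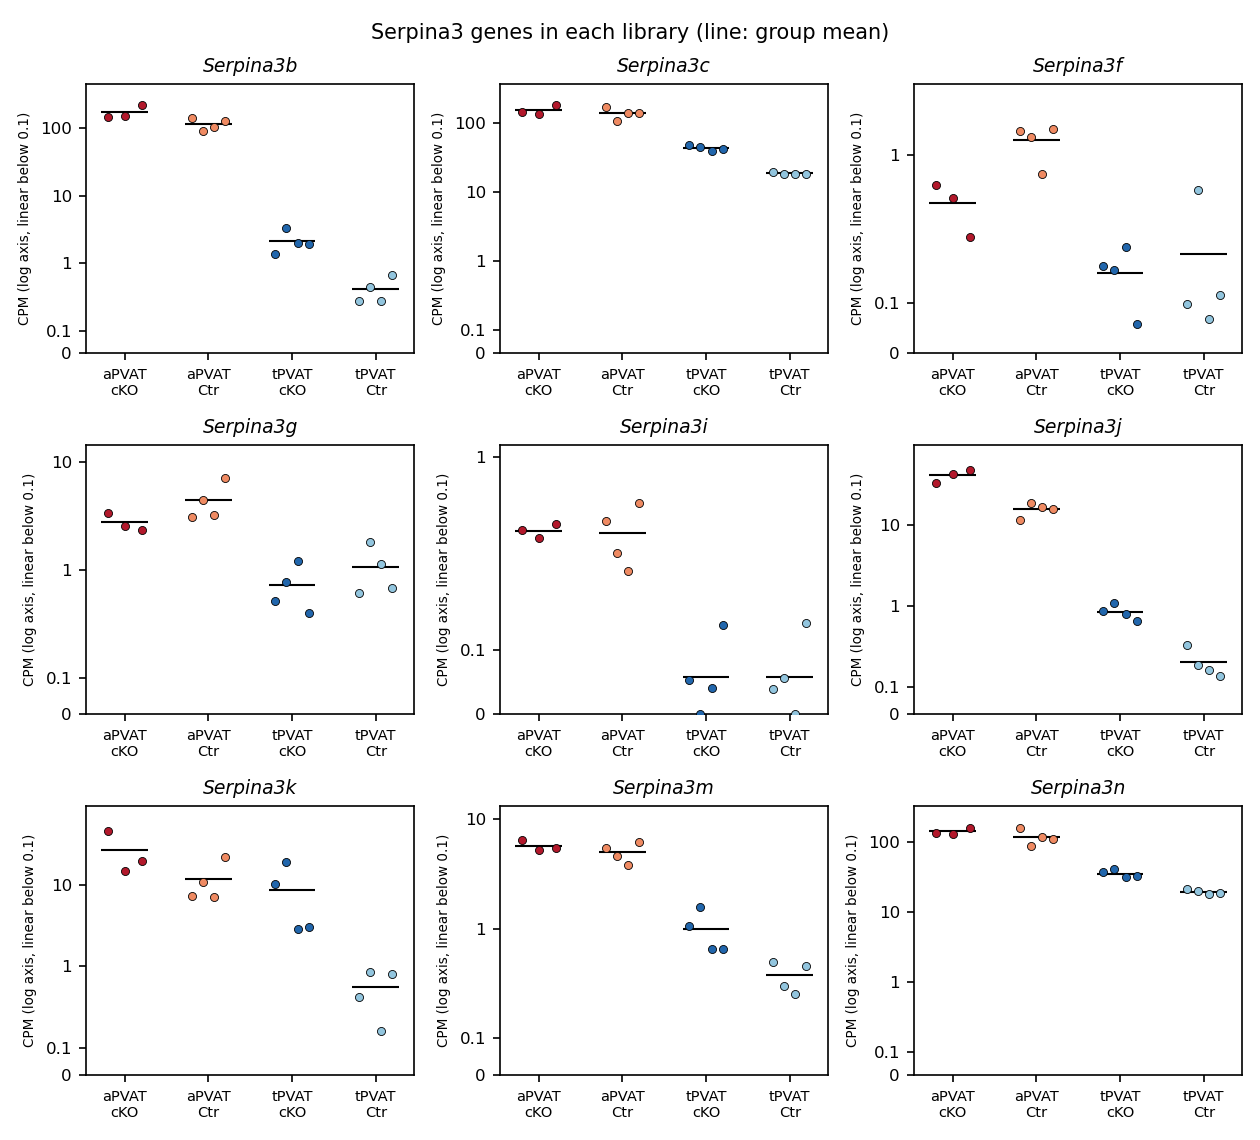
CPM of each of the 9 genes (one panel each, log axis, linear below 0.1 CPM) in every library of aPVAT cKO (3 libraries), aPVAT Ctr, tPVAT cKO and tPVAT Ctr (4 libraries each), with a line at the group mean. Serpina3b and Serpina3j show the widest gap between depots, and Serpina3k spreads widely within its groups.

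Other lists differed between the depots as well. Of all tested genes, 27.2% were called higher and 25.4% lower in aPVAT of cKO mice, and 29.3% and 27.3% in Ctr mice. In Ctr mice 18 of 20 tested genes of the interferon response, 8 of 8 macrophage markers, 7 of 9 lymphocyte markers and 13 of 17 proteases were higher in aPVAT and none was lower. In cKO mice the counts were 15 of 20, 7 of 8, 5 of 9 and 10 of 17, and 2 proteases were lower (Ctsb, log2 fold change -0.27, and Plg, -1.96), neither of them with library totals alone. The summed lymphocyte markers were between 14.6 and 32.6 CPM in aPVAT cKO and between 16.6 and 63.9 CPM in aPVAT Ctr, against 9.56 to 21.0 CPM in tPVAT cKO and 9.52 to 13.7 CPM in tPVAT Ctr. Heart muscle markers went the other way, with 5 of 5 lower in aPVAT in both genotypes (Myh6, Tnni3, Tnnt2, Ryr2 and Nppa), of which 3 in cKO and 5 in Ctr were lower with library totals alone. Of 26 tested genes of the acute phase and of IL-6 signalling, 19 were higher and 2 lower in aPVAT of Ctr mice, and 14 and 4 in cKO mice. Fibroblast markers were higher for 5 of 7 in both genotypes, with 0 lower. Endothelial markers were higher for 4 of 6 in Ctr, with 1 lower, and for 5 of 6 in cKO, with 0 lower. Adipocyte markers were higher for 4 of 8 in both genotypes, with 1 lower in Ctr and 3 in cKO. What part these differences have in the depot values of the Serpina3 genes was not tested.

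In tPVAT 6 of the 9 genes were called higher in cKO than in Ctr (Serpina3b, c, j, k, m and n) and none lower, where 12.0% of all tested genes were called, 5.44% higher and 6.61% lower (7.64% and 3.78% with library totals alone, which called the same number of members). The same 6 were the ones whose libraries did not overlap between genotypes, as for 11.0% of all tested genes in this direction. These differences led to the choice of the genes, so the counts describe it and are no separate evidence. Serpina3k and Serpina3m share windows, and their log2 CPM varied together within groups (Pearson's r = 0.782), so these 2 may not be separate observations. Serpina3k had the largest log2 fold change of cKO over Ctr, 3.96 (SE 0.729), followed by Serpina3b with 2.39 (SE 0.346) and Serpina3j with 2.03 (SE 0.314). Serpina3m had 1.40 (SE 0.311), Serpina3c 1.24 (SE 0.121) and Serpina3n 0.87 (SE 0.146). Serpina3f, g and i were not called, with log2 fold changes of -0.48 (SE 0.607), -0.56 (SE 0.404) and -0.06 (SE 0.801), and for Serpina3f the sign hung on tPVAT Ctr 2, without which it was 0.75.

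The level in tPVAT cKO as a share of that in aPVAT Ctr differed from gene to gene. These shares include the level that was already present in tPVAT Ctr. The mean of Serpina3k in tPVAT cKO was 73.6% of its mean in aPVAT Ctr (45.4% without tPVAT cKO 2, 103% without aPVAT Ctr 4), and the libraries of both groups overlapped. Serpina3c stood at 31.6%, Serpina3n at 29.7% and Serpina3m at 19.7% of their aPVAT Ctr means. Serpina3j stood at 5.42% and Serpina3b at 1.83%, so that these 2 genes, despite large fold changes in tPVAT, were still at a small fraction of the abdominal level. For the sum of the 9 genes the value was 22.4%.

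Within the family's transcripts of tPVAT, Serpina3k took a larger and Serpina3n a smaller share in cKO than in Ctr. Serpina3c took 48.3% ± 5.21 of the family's CPM in tPVAT cKO and 46.0% ± 1.90 in tPVAT Ctr, and Serpina3n 37.9% ± 1.51 in tPVAT cKO and 47.0% ± 1.27 in tPVAT Ctr (SD, n = 4 each). Serpina3k took 8.52% ± 6.17 in tPVAT cKO and 1.34% ± 0.78 in tPVAT Ctr. In aPVAT Serpina3b took 31.4% ± 3.15 in cKO (SD, n = 3) and 28.2% ± 1.13 in Ctr (SD, n = 4), and Serpina3j 7.63% ± 1.13 in cKO and 3.98% ± 1.45 in Ctr.

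In aPVAT 1 of the 9 genes was called, Serpina3j, which was higher in cKO with a log2 fold change of 1.40 (SE 0.169), where 1.53% of all tested genes were called, 0.743% higher and 0.789% lower (0.585% and 1.01% with library totals alone). Its cKO libraries (33.6 to 48.7 CPM) lay above all Ctr libraries (11.6 to 19.1 CPM). Serpina3b also did not overlap, though by a narrow margin (146 CPM in the lowest cKO library, 144 CPM in the highest Ctr library), with a log2 fold change of 0.56 (SE 0.220). Serpina3f was lower in cKO without overlap, with a log2 fold change of -1.36 (SE 0.479), and was not called. Libraries without overlap were found for 3.76% of all tested genes in the higher and 5.80% in the lower direction. The other 6 genes overlapped, with log2 fold changes of 1.16 (SE 0.574) for Serpina3k, -0.69 for Serpina3g, 0.25 for Serpina3n, 0.20 for Serpina3m, 0.14 for Serpina3c and 0.03 for Serpina3i.

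**Figure D4:**
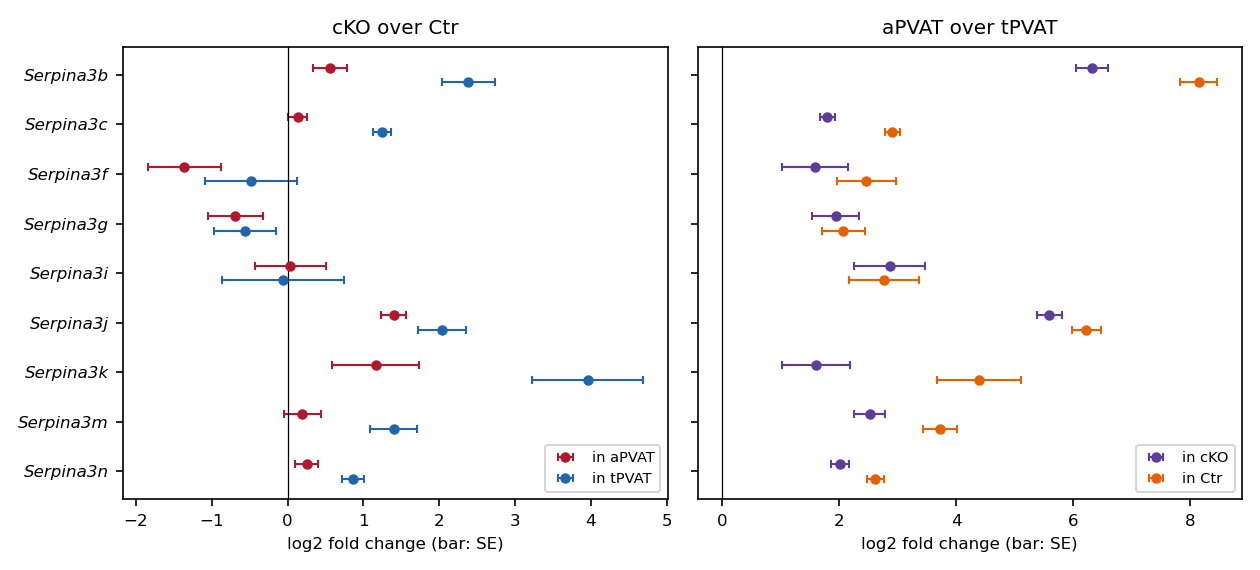
Log2 fold changes with their SE for the 9 genes. Left: cKO over Ctr in aPVAT and in tPVAT, where Serpina3b, c, j, k, m and n lie above 0 in tPVAT. Right: aPVAT over tPVAT in cKO and in Ctr, where all 9 lie above 0.

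The genotype effects of the 2 depots were set against each other as the aPVAT effect minus the tPVAT effect. Serpina3c was the member called, with a difference of -1.11 on the log2 scale (SE 0.175), where 0.784% of all tested genes were called, 0.158% higher and 0.626% lower (0.0967% and 0.921% with library totals alone). For Serpina3b the difference was -1.83, which was not called with edgeR and was called with DESeq2, with library totals alone, without the filter on low counts, and without any one of aPVAT cKO 4, aPVAT Ctr 2, tPVAT cKO 1 or tPVAT Ctr 4. For the other 7 genes a difference between depots was not called. These contrasts are made of the same libraries as the genotype effects, and the values are a description.

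Serpina3k is known as a liver product, so hepatocyte markers were read in the same libraries. Of 14 hepatocyte markers 13 were tested, and none was called between genotypes in either depot with edgeR or DESeq2, with 0 at an unadjusted p under 0.05 in each. Alb, the albumin gene, had 0.697, 8.86, 0.696 and 0.614 CPM in tPVAT cKO 1 to 4, and 7.58, 2.23, 0.253 and 0.573 CPM in tPVAT Ctr 1 to 4. Ttr, Apoa2 and Fgb averaged 0.156, 0.771 and 0.135 CPM in tPVAT cKO, and 0.329, 0.848 and 0.258 CPM in tPVAT Ctr. The 14 markers summed to between 2.32 and 16.4 CPM in tPVAT cKO and between 2.94 and 14.7 CPM in tPVAT Ctr, and to between 8.54 and 10.7 CPM in aPVAT cKO and between 6.70 and 11.1 CPM in aPVAT Ctr, with no marker at 0 in all libraries of a group. Serpina3k was at 18.7 CPM in tPVAT cKO 2 and at 0.415 CPM in tPVAT Ctr 1, the libraries with the most Alb of their groups, and at 10.2 CPM in tPVAT cKO 1, which had little Alb.

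**Figure D5:**
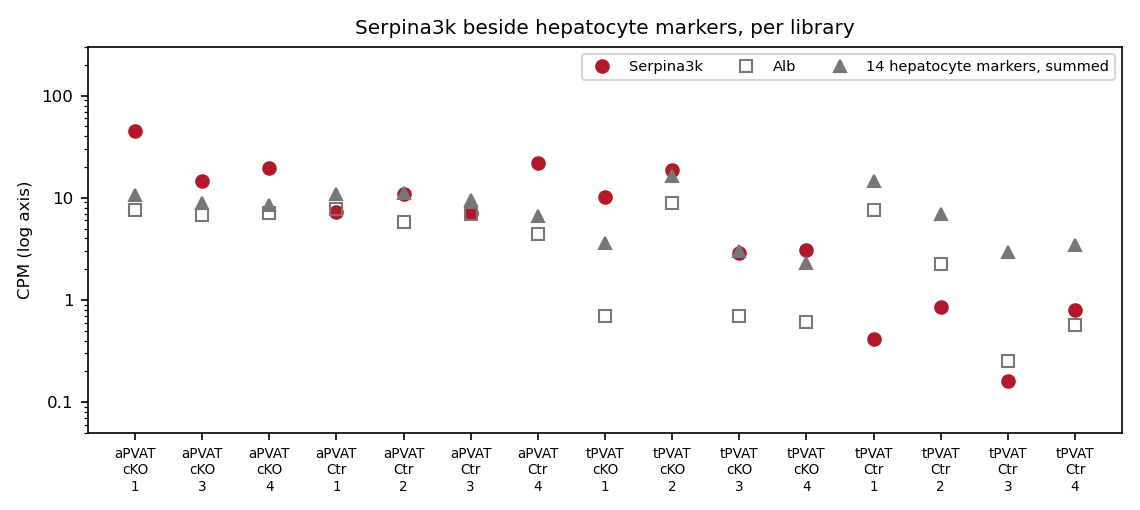
CPM (log axis) of Serpina3k (filled circles), of Alb (open squares) and of 14 hepatocyte markers summed (triangles) in each of the 15 libraries. tPVAT cKO 1 had 0.697 CPM of Alb and 10.2 CPM of Serpina3k, and tPVAT Ctr 1 had 7.58 CPM of Alb and 0.415 CPM of Serpina3k. In tPVAT cKO 2 both were the highest of their group, with 8.86 CPM of Alb and 18.7 CPM of Serpina3k.

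Serpina3g and Serpina3f were set beside the lists of leukocytes and of the interferon response, since Serpina3g is known from activated leukocytes. In aPVAT the interferon list had a median log2 fold change of cKO over Ctr of -0.41 and the lymphocyte markers one of -0.69, against -0.0099 for all tested genes. No gene of either list was called with edgeR, where 10 of 20 interferon genes and 3 of 9 lymphocyte markers had an unadjusted p under 0.05, while DESeq2 called 2 (Cxcl9 and Oas1a) and 0. Of 8 macrophage markers, with a median of -0.49, edgeR called none, 7 had an unadjusted p under 0.05 and DESeq2 called 5 (Csf1r, Cd68, C1qa, C1qb and Cd163). Serpina3g (-0.69) and Serpina3f (-1.36) had values of the same sign. In tPVAT the medians were -0.13 for the interferon list and -0.06 for the lymphocyte markers. There edgeR called none of the 20 and 9 genes, 4 and 1 had an unadjusted p under 0.05, and DESeq2 called 2 (Irf9 and Rsad2) and 0. The part of these lists in the values of Serpina3g and Serpina3f was not tested.

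Genes of the acute phase and of IL-6 signalling were read as 1 list in tPVAT. Of 26 tested genes, 6 were called higher and 3 lower in cKO, and 6 higher and 0 lower with library totals alone. The median log2 fold change of the 26 was 0.10. Of all tested genes 12.0% were called, 5.44% higher and 6.61% lower. Among the higher ones were Orm2 with 1.5 (SE 0.129, edgeR adjusted p = 1.29e-06) and Orm1 with 0.78 (SE 0.0778, edgeR adjusted p = 6.12e-06), which code for the plasma protein orosomucoid. Orm1 averaged 161 ± 15.9 CPM in tPVAT cKO and 93.6 ± 4.69 CPM in tPVAT Ctr (SD, n = 4 each). Steap4, a metalloreductase of fat cells, had a log2 fold change of 0.67 (edgeR adjusted p = 0.000162), and Saa1, a serum amyloid, one of 2.68 (edgeR adjusted p = 0.0113) at 0.277 CPM in tPVAT cKO and 0.0401 CPM in tPVAT Ctr. The lower ones were Bcl3 (-0.52, edgeR adjusted p = 0.0406), Stat3 (-0.29, edgeR adjusted p = 0.0354) and Lifr (-0.21, edgeR adjusted p = 0.0374), and none of them was called with library totals alone. In aPVAT Orm2 was the 1 of the 26 that edgeR called higher (0.56, edgeR adjusted p = 0.0431, not called with library totals alone), and it called none lower. DESeq2 called 3 of the 26 there, also Orm1 (edgeR log2 fold change 0.31) and Bcl3 (-0.58). Of all tested genes, 1.53% were called in aPVAT with edgeR.

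Of 17 genes of the glucocorticoid response, 1 was higher (Sult1a1, a sulfotransferase, log2 fold change 0.69) and 3 were lower in tPVAT cKO, where 12.0% of all tested genes were called. The lower ones were Hsd11b1, the enzyme that makes active glucocorticoid within fat (log2 fold change -1.0, SE 0.0985, edgeR adjusted p = 5.3e-06), Pdk4 (-0.52) and Errfi1 (-0.40). Of 17 tested proteases, 1 was higher in tPVAT cKO, the neutrophil elastase Elane (1.79, SE 0.493, edgeR adjusted p = 0.0262). The mast cell protease Mcpt4 was lower (-0.39, SE 0.118, edgeR adjusted p = 0.0426, not called with library totals alone). The called share of proteases was close to the 12.0% of all tested genes. In aPVAT, where 1.53% of all tested genes were called, Pdk4 (-1.91), Hsd11b1 (-0.76) and the protease Ctsh (-0.44) were lower in cKO. No gene of these 2 lists was higher there. DESeq2 added Errfi1, Mcpt4, Tpsb2, Gzmb and Ctss, all lower.

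Genes around the cluster were compared in the same way. Of 38 other genes within 500 kb, 12 were tested. In tPVAT cKO 8 of the 12 were higher and none lower, where 5.44% of all tested genes were called higher. The median log2 fold change of the 12 was 1.0, against -0.0134 for all tested genes. The 8 were Serpina1a, b, c and d, B430119L08Rik, Gm8893 (1.80), Gm8895 and Clmn. All of these but Clmn lie among the Serpina1 genes, where reads may be shared, so they are not separate observations. In aPVAT 2 of the 12 were higher, B430119L08Rik (1.36) and Serpina1a (0.78). The neighbours include the Serpina1 genes, which code for alpha-1-antitrypsin, the main inhibitor of neutrophil elastase in plasma. Serpina1a averaged 3.58 ± 0.613 CPM in tPVAT cKO and 0.684 ± 0.0901 CPM in tPVAT Ctr (SD, n = 4 each), a log2 fold change of 2.38 (SE 0.165, edgeR adjusted p = 1.24e-07). Serpina1c (1.46), Serpina1d (0.94) and Serpina1b (0.81) were higher too, while Serpina1e (0.58, edgeR adjusted p = 0.22) was not called. The Serpina1 genes are near-identical copies, so their reads may be split among them.

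B430119L08Rik, a gene on the opposite strand within Serpina1c at chr12:103895897-103898784, had the smallest adjusted p of the neighbours in tPVAT. It had 20.5, 18.0, 21.3 and 22.9 CPM in tPVAT cKO 1 to 4, against 0.316, 0.112, 0.207 and 0.229 CPM in tPVAT Ctr 1 to 4. The log2 fold change was 6.58 (SE 0.207, edgeR adjusted p = 3.09e-11), and the cKO level reached that of aPVAT cKO (18.6 ± 3.25 CPM, SD, n = 3) and lay above that of aPVAT Ctr (7.23 ± 0.958 CPM, SD, n = 4). Whether the counting used strand is not given in the sources used here, so its reads and those of Serpina1c may be mixed. Gm8895 had 16, 22, 28 and 19 reads in tPVAT cKO 1 to 4 and none in the 4 tPVAT Ctr libraries. On the other side of the cluster Clmn, which codes for calmin, had a log2 fold change of 1.06 (SE 0.137, edgeR adjusted p = 9.17e-05), and Dicer1, the ribonuclease that makes miRNAs, had -0.03 (SE 0.0589, edgeR adjusted p = 0.821).

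Of 59 other serpin genes 24 were tested, 5 of them Serpina1 genes. In tPVAT 4 were higher in cKO and none was lower, all of them Serpina1 genes (a, b, c and d), where 12.0% of all tested genes were called, with a median log2 fold change of 0.02 over the 24. In aPVAT 1 was higher, Serpina1a (log2 fold change 0.78, SE 0.162, edgeR adjusted p = 0.0222). Between depots, 8 of the 24 were higher and 2 lower (Serpina1a, log2 fold change -0.87, and Serpina1c, -1.17) in aPVAT of cKO mice. In aPVAT of Ctr mice 10 were higher and none lower. Of all tested genes, 27.2% were called higher in aPVAT of cKO mice and 29.3% in that of Ctr mice. With library totals alone the counts were 17 higher and 1 lower (Serpina1c) in cKO and 21 and 0 in Ctr. Serpinb9, the intracellular inhibitor of granzyme B, had a log2 fold change of 1.11 between depots in Ctr (edgeR adjusted p = 4.41e-06) and of 0.06 between genotypes in tPVAT.

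The genes whose levels were most like those of each member were sought among 13102 genes by Pearson's r of log2 CPM over the 15 libraries. The 4 groups are far apart, so r takes in the differences between groups, and it is given as a description. Serpina3c was most like Gpt2 (r = 0.997), an aminotransferase of alanine metabolism, followed by Slc22a4 and Heph (0.995 for each). Gpt2 was also among the 3 most like Serpina3n (r = 0.992), after Bid (0.993) and Hebp1 (0.992). Gpt2 averaged 182 CPM in aPVAT cKO, 154 CPM in aPVAT Ctr, 65.7 CPM in tPVAT cKO and 35.8 CPM in tPVAT Ctr. Serpina3b was most like Atp2b4 and Cmip (r = 0.993 for each) and Hoxc9 (0.992), a gene of posterior body identity, and Serpina3j most like Masp1 (0.991), a protease of the complement system, Fbxo45 (0.989) and Cers4 (0.988).

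Serpina3g was most like the interleukin-2 receptor chain Il2rb (r = 0.968), the integrin Itgal and the chemokine Ccl5 (0.963 for each), and Serpina3f most like Ciita (0.963), the regulator of MHC class II genes, Apol9a (0.96) and Racgap1 (0.954). Il2rb averaged 3.09 CPM in aPVAT cKO and 5.38 CPM in aPVAT Ctr, and Ciita 6.23 CPM in aPVAT cKO and 10.2 CPM in aPVAT Ctr. Serpina3k was most like Car5b, Trhde and Mc2r (r = 0.95 for each), Mc2r being the receptor for corticotropin. Serpina3m was most like Cmip (0.986), Cldn22 (0.985) and Hspa12a (0.984), and Serpina3i, at its low level, like Rpa2 (0.934), Trmt2a (0.931) and Btbd19 (0.927).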

How the data were processed

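Poly(A) RNA of frozen aPVAT and tPVAT was made into stranded mRNA libraries, per the labels' protocols. The authors deposited raw counts, without normalization, for 15 libraries and 43352 genes named by Ensembl identifier. The submitters' processing notes name mm10 as the build and list DESeq2 1.42.1, Subread and Salmon, with no word on what each did. Not given in the sources used here are the counting tool, the annotation, the strand setting and the treatment of reads with several matches. An aPVAT cKO sample numbered 2 was not analysed.

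Symbols and coordinates came from GENCODE M21 on GRCm38, which held 42462 of the identifiers. Counts were analysed with edgeR 4.0.16 in R 4.3.3. Genes were kept by filterByExpr (minimum count 10), which left 19645 genes, all 9 members included. Libraries were scaled by TMM, and 1 quasi-likelihood model with a mean per group was fitted to all 15 libraries. P-values were adjusted by Benjamini and Hochberg over all tested genes, with a threshold of 0.05. CPM use TMM-scaled library sizes. Depth was 37.8 M to 68.7 M counts per library. The code was tested on simulated data. Alternatives were DESeq2 1.42.0, other scalings (library totals alone in the fit were chosen after seeing the data), no filter, fits of single contrasts, a replicate block (also with limma 3.58.1) and left-out libraries.

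The members and lists were chosen with earlier results of these data known. Named genes are all 9 members, Prdm16, up to 4 called genes with the smallest p of a list, and the 3 genes most like each member. Also named are most genes that make up a count of at most 5 calls, and the hepatocyte markers Alb, Ttr, Apoa2 and Fgb. B430119L08Rik, Gm8893, Gm8895, Clmn, Dicer1 and Serpinb9 were picked after their values were seen. Shared windows, coding identity and promoter matches were computed from the annotated transcripts and from the promoters of RefSeq.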

Additional observations from a re-analysis of the deposited data

Results flagged for a closer look

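Serpina3f stood out in 1 library. It had 0.581 CPM in tPVAT Ctr 2, against 0.0689 to 0.115 CPM in the other libraries of tPVAT Ctr, a gap that took 0.911 of the range of the group. Of 30 groups of 4 libraries examined over the members, this was the only one with such a library, and chance alone gives about 1 in 20.

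The genotype effect on Serpina3c differed between the depots. The aPVAT effect minus the tPVAT effect was -1.11 on the log2 scale (SE 0.175) in the edgeR fit, with log2 fold changes of cKO over Ctr of 0.14 in aPVAT and 1.24 in tPVAT. The gene was chosen with both genotype effects known.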

How the results depend on the processing

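The 216 values of the depot contrast in Ctr kept direction and call under every alternative, and in cKO 207 of 216 did, the 9 others being those named for Serpina3f and Serpina3k. The member counts of the genotype contrasts stayed at 6 in tPVAT and 1 in aPVAT in every fit with a library left out. The interaction count for members was 2 (Serpina3b added) with DESeq2, with library totals alone, without the filter on low counts, and without aPVAT Ctr 2 and aPVAT cKO 4, and 1 to 2 with 1 library left out. Of all tested genes, 301 were called between genotypes in aPVAT, 604 with DESeq2, 92 with these groups alone and 161 to 398 with 1 library left out (161 without aPVAT cKO 1); in tPVAT 2367, and 3726 with these groups alone; in the interaction 154, and 350 with DESeq2. The summed CPM were 703, 543, 77.0 and 31.9 in aPVAT cKO, aPVAT Ctr, tPVAT cKO and tPVAT Ctr with library totals alone, and 407, 298, 58.3 and 21.8 without Serpina3n. Values near 0 changed sign. With library totals alone the tPVAT genotype effect of Serpina3i was 0.0049. Without aPVAT Ctr 2 and aPVAT cKO 4, the aPVAT genotype effect was -0.10 for Serpina3c and -0.11 for Serpina3i, and the interaction -0.052 for Serpina3i. With 1 library left out, the ranges were -0.0013 to 0.25 (Serpina3c, aPVAT), -0.75 to 0.75 (Serpina3f, tPVAT), -0.53 to 0.22 (Serpina3g, interaction), -0.14 to 0.25 (Serpina3i, aPVAT), -0.89 to 0.69 (Serpina3i, tPVAT) and -0.65 to 0.92 (Serpina3i, interaction). The causes were not tested. Same-numbered libraries did not deviate together (r of -0.222 to 0.169 between groups), and the labels do not say whether a number marks 1 animal, so the libraries were not treated as pairs. With the number as a replicate block the aPVAT effect of Serpina3i was -0.0086, and with depot pairs as a random block (correlation 0.0217) Serpina3k in tPVAT was 3.78 and no longer called, which left 5 members in tPVAT. DESeq2's size factors and the removal of mitochondrial genes moved the median of all genes by less than 0.1, and library totals alone moved it to 0.69 and 0.78 between the depots.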

Other observations

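The 5 Serpina3 rows outside the 9 genes were measured as well. Serpina3a averaged 0.128 CPM in aPVAT cKO, 0.0948 CPM in aPVAT Ctr, 0.102 CPM in tPVAT cKO and 0.0279 CPM in tPVAT Ctr. The pseudogene Serpina3d-ps averaged 0.0732 CPM in tPVAT cKO and 0.00495 CPM in tPVAT Ctr, against 0.0147 CPM in aPVAT cKO and 0.0118 CPM in aPVAT Ctr. Serpina3h, Serpina3e-ps and Serpina3l-ps were at 0.074 CPM or lower in every group. None of the 5 passed the filter on low counts.

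The ratio of Serpina3b to Serpina3c separated the depots. It averaged 1.11 ± 0.105 in aPVAT cKO (SD, n = 3) and 0.834 ± 0.0569 in aPVAT Ctr, and 0.0487 ± 0.0184 in tPVAT cKO and 0.0222 ± 0.01 in tPVAT Ctr (SD, n = 4 each). Serpina3b and Serpina3c are neighbours in the genome on opposite strands.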
